A study of Mus musculus with 16 samples.

Results

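In mice exposed to an odor mixture, gene expression was compared between the sorted cell fractions titled GFP+ and titled GFP- of the same pools of mice. The comparison takes 8 of the 16 libraries in all, chosen by their titles: 4 titled GFP+ and 4 titled GFP-, paired by replicate number because both libraries of a number came from the same 3 mice. The libraries titled GFP+ had less S100a5, the gene that carries the reporter, than those titled GFP-, so every direction here goes by a title that S100a5 opposed.

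All mice were C57BL/6 animals of both sexes, aged 7 to 12 weeks, with the S100a5-tauGFP reporter, a green fluorescent protein (GFP) fused to tau and tied to S100a5. In all, 24 mice were housed singly for 40 h in chambers with clean air flowing at 3.1 L/min. From 26 h onward the odor mice received pulses of 10 s every 20 min of isoamyl acetate, the smell of banana, mixed with whiskey lactone, a woody note of oak-aged spirits. The vehicle mice, which enter here only where a result is set against them, received filtered air in the same way and gave 8 libraries. Olfactory mucosa was dissociated and sorted by flow cytometry, and labelled RNA was prepared from 50 to 100 ng of total RNA for 1 Affymetrix array a library. The labels do not say where the GFP gate lay, nor whether the reporter replaces any coding sequence of S100a5.

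Each mature olfactory sensory neuron expresses 1 odorant receptor gene out of a large family, and odor binding opens cyclic nucleotide-gated channels through a G protein and adenylyl cyclase. Repeated firing changes transcription in the neuron over hours, and S100a5, which encodes a small calcium-binding protein, is among the genes that rise with activity and fall when the nostril is closed. Sorting for a reporter at such a gene is therefore used to ask which receptors an odor drives. The mucosa also holds sustentacular cells, microvillar cells, Bowman glands, basal stem cells, newly formed neurons, and blood cells in its vessels.

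The 8 arrays gave 19505 genes on the log2 scale of the deposited table, whose values ran from 1.69 to 19.4; differences are given in units of that scale and not as folds. The median over genes was 6.96 to 7.09 in titled GFP+ libraries and 6.63 to 6.73 in titled GFP- libraries. The negative control probe sets had a median of 5.45, and a level near or under it carries little information on whether a transcript was present. For each of the 16 samples, the fraction in the title was the opposite of the one in the cell type tag. Vehicle pool 3 went against the other vehicle pools under either label. Vehicle levels and differences are given for pools 1, 2 and 4, with pool 3 apart, while the fits to all 16 arrays include pool 3. Odor replicate 4 titled GFP+ stood apart in blood cell genes, as its values below show, and the pool differences are therefore given 1 by 1.

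The markers of mature olfactory sensory neurons were near the top of the scale in both fractions. Omp, olfactory marker protein, averaged 18.52 ± 0.09 in titled GFP+ and 18.54 ± 0.04 in titled GFP- (SD, n = 4 each), and Gnal, the olfactory G protein alpha subunit, 18.30 ± 0.05 in titled GFP+ and 18.40 ± 0.08 in titled GFP-. Neither passed the test (limma adjusted p = 0.966 and 0.733). The defining markers of olfactory neurons were thus high in both fractions. Horizontal basal cell, ensheathing glia, endothelial and fibroblast markers were mostly under the negative control median: 7 of 8, 5 of 7, 6 of 7 and 4 of 5 measured genes. Y-linked Uty was 6.83, 3.13, 9.77 and 3.58 in titled GFP+ replicates 1 to 4, and 9.04, 3.58, 10.25 and 3.65 in titled GFP- replicates 1 to 4. Pools 1 and 3 were high and pools 2 and 4 low in both fractions of the pool, so the sex makeup followed the replicate number.

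S100a5 was lower in the fraction titled GFP+ in all 4 odor pools. Its values were 15.39, 15.11, 15.05 and 15.55 in titled GFP+ and 16.04, 16.66, 16.55 and 16.48 in titled GFP-. The 2 groups did not overlap, and the lowest library titled GFP- still lay above the highest titled GFP+. The mean was 15.27 ± 0.24 in titled GFP+ and 16.43 ± 0.27 in titled GFP- (SD, n = 4 each), a difference of -1.16 ± 0.19 (SE, limma with the pool as a block, adjusted p = 0.00561). The differences in pools 1 to 4 were -0.65, -1.55, -1.50 and -0.93. All 4 were negative, which in an exact two-sided sign-flip permutation test gives the smallest p that 4 pairs allow, one that lies above 0.05. With all 16 arrays in 1 fit the same difference missed the threshold, at an adjusted p = 0.0625 without pools as a block and 0.206 with them. Vehicle pool 3, where the S100a5 difference was 1.38, enters the spread in these fits. On the 14 arrays without that pool limma gave an adjusted p = 0.000588 without pools as a block and 0.00423 with them.

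Limma called 2406 genes at an adjusted p below 0.05, which is 12.3% of those tested, with 1643 higher (8.42%) and 763 lower (3.91%) in the titled GFP+, S100a5-lower fraction. All 4 pools had the same sign for 2387 of them, and the libraries did not overlap for 2073, of 3219 genes without overlap (16.5% of all tested). Large differences in genes other than receptors lay on 1 side: 437 called genes were higher by over 2 in titled GFP+ and 2 were lower by over 2. For 239 of the 437 the titled GFP- mean lay under the negative control median, so the size of such a difference depends on a level near background. Odorant and trace amine-associated receptors were more even, with 199 higher and 174 lower by over 2. The share of higher calls depended on the scaling, at 68.3% as deposited, 52.2% after quantile normalization and 14.5% after centring each array on its median, which moved the median difference of all genes from -0.08 to -0.43. Centring called 42.2% of all genes lower and 7.17% higher, and counts of lower members in a list are to be read against these shares where centring is named. Among genes other than receptors, 20.3% of those with a mean level of 6 to 8 were higher in titled GFP+ and 3.25% lower, while at levels of 14 to 20 the shares were 1.19% and 1.72%.

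**Figure D1:**
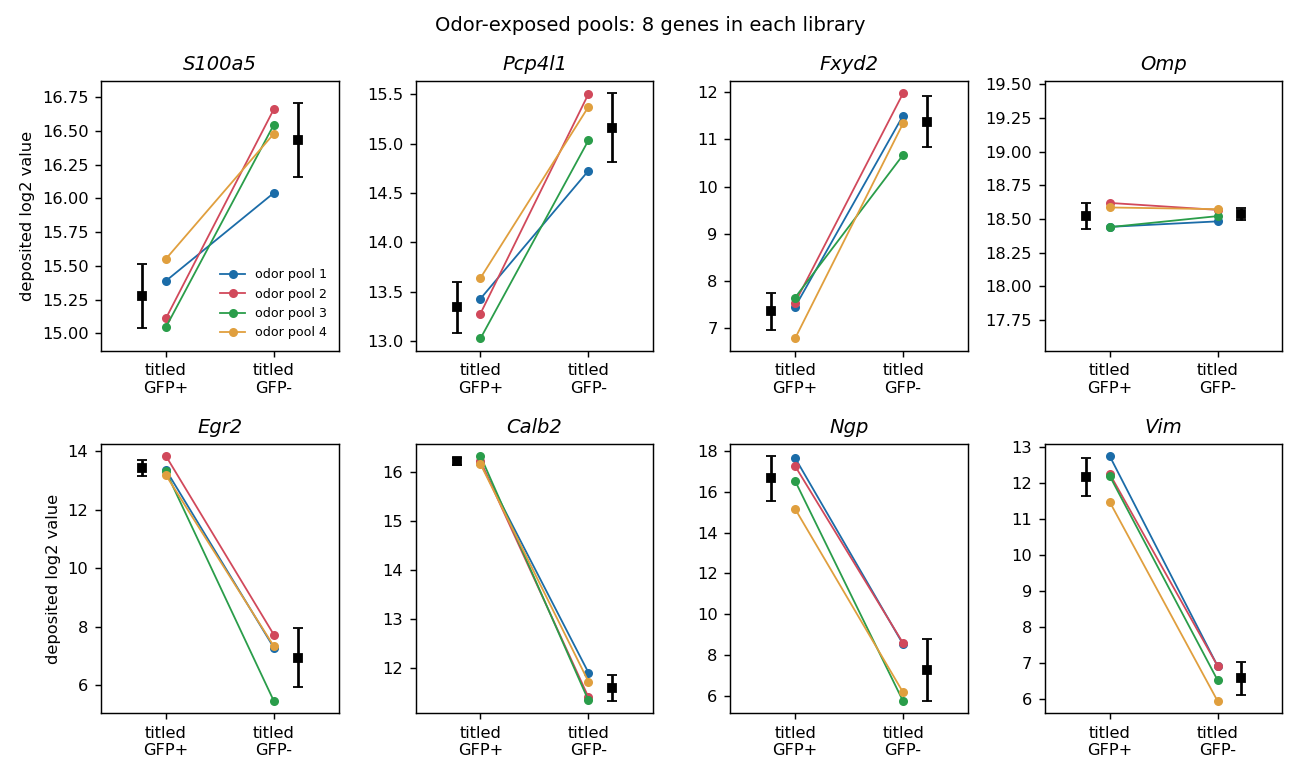
Deposited log2 values (y axis) of 8 genes in the libraries titled GFP+ (left) and titled GFP- (right); lines join the 2 libraries of a pool, and black squares with bars give the mean ± SD of 4 libraries. S100a5, Pcp4l1 and Fxyd2 lie lower in titled GFP+ in every pool, Egr2, Calb2, Ngp and Vim lie higher, and Omp stays near 18.5 on both sides; each panel has its own scale.

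Genes lower in the fraction titled GFP+, on the same side as S100a5, were led by Fxyd2, the gamma subunit that tunes the sodium pump. Fxyd2 had 7.45, 7.54, 7.64 and 6.78 in titled GFP+ and 11.51, 11.98, 10.67 and 11.34 in titled GFP-. No library titled GFP+ came within 3 units of one titled GFP-, and the difference was -4.02 ± 0.26 (SE, adjusted p = 3.89e-05). The other 8 measured genes of sodium pump beta subunits and FXYD proteins did not share it: Fxyd6 was higher by 1.19, and the rest did not pass. Avp, which encodes the vasopressin precursor, was 6.49, 6.80, 6.72 and 7.20 in titled GFP+ and 8.24, 8.93, 8.90 and 9.43 in titled GFP-. Its pool differences kept between -2.24 and -1.74 (mean -2.07 ± 0.15, SE, adjusted p = 7.54e-05).

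Genes of dense-core vesicles, the organelles that store and release peptides, were lower in 6 of 21 measured cases and higher in 2, against 3.91% lower and 8.42% higher over all genes. Their median difference was -0.23 against -0.08 over all genes, and centring gave 16 lower and 1 higher. Ptprn, a membrane protein of these vesicles, differed by -1.97 ± 0.26 (SE), Caly, a vesicle trafficking protein, by -1.62 ± 0.14, and Chgb, a granin, by -0.92 ± 0.18. Caly had 7.47, 7.64, 7.59 and 7.84 in titled GFP+ and 9.04, 9.37, 9.01 and 9.59 in titled GFP-, with no overlap. Against the direction of most of the list, Cadps2, a priming factor for vesicle release, was higher by 2.18 ± 0.15 (adjusted p = 6.31e-05) and Scg2, a secretogranin, by 0.80. Of 14 synaptic vesicle genes 3 were lower and 0 higher (limma), and all 14 differences were below 0, with a median of -0.30; centring gave 13 lower. Syt4, a synaptotagmin, differed by -1.01 (adjusted p = 0.00287), Syn2, a synapsin, by -0.70 and Sv2b, a vesicle glycoprotein, by -0.57. Of 34 voltage-gated potassium channel genes 2 passed, fewer than the 12.3% of all genes, while centring gave 22 lower. Both were lower: Kcng1, a modifier subunit without current of its own, at -1.64 ± 0.24 (adjusted p = 0.00275), and Kcna1, a delayed rectifier, at -0.81 ± 0.14 (adjusted p = 0.00635). Of 8 RFX transcription factor genes 1 passed, a share near the 12.3% of all genes, and centring gave 7 lower. That gene was Rfx4, lower in titled GFP+ in each pool by a log2 difference between -2.04 and -1.39.

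Genes known to rise with olfactory neuron activity, whose list was assembled with earlier results of these data known, were lower in the titled GFP+, S100a5-lower fraction in 6 of 7 cases, S100a5 among them. Their median difference was -1.16, against -0.08 over all genes, of which 3.91% were lower and 8.42% higher. Pcp4l1, a small calmodulin-binding protein relative, had 13.43, 13.28, 13.02 and 13.64 in titled GFP+ and 14.73, 15.50, 15.03 and 15.37 in titled GFP-. The difference of -1.82 ± 0.18 (SE, adjusted p = 0.000419) exceeded that of S100a5 itself. Pcdh10, a protocadherin of the cell surface, had 9.86, 9.85, 10.65 and 10.44 in titled GFP+ and 11.67, 11.83, 11.86 and 11.92 in titled GFP-. Lrrc3b, a leucine-rich repeat membrane protein, differed by -1.40 ± 0.16, Kirrel2, an adhesion molecule that sorts axons, by -0.93 ± 0.14, and Sema7a, a semaphorin, by -0.67 ± 0.14. Cntn4, a contactin, was the member that did not pass (-0.09, adjusted p = 0.773). The list of genes that activity lowers had 4 members. Epha5, an ephrin receptor, was also lower (-0.74), and Plxnc1, the plexin that binds Sema7a, was higher (0.67). Kirrel3 (0.20) and Efna5 (-0.08) did not pass. Of 20 axon guidance genes, which share Pcdh10, Kirrel2, Sema7a, Epha5 and Plxnc1 with these 2 lists, Sema3a, a secreted repellent, was the other 1 that passed, higher by 1.01.

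The S100 family divided. Of 15 measured genes named S100, 4 were higher and 2 lower in titled GFP+, against 8.42% higher and 3.91% lower over all genes. Among the 15, S100pbp encodes a binding partner and not a family member. Centring gave 4 higher and 6 lower. S100a8 and S100a9, which pair as calprotectin in neutrophils, were higher by 8.50 and 7.84, S100a11 by 5.62 and S100a10, the annexin partner, by 1.42. Both calprotectin genes are shared with the neutrophil list. The titled GFP- mean of S100a8 (4.99) lay under the negative control median. S100a5 and S100a13 were lower by log2 differences of -1.16 and -0.68.

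Of 14 mature neuron genes 2 were lower and 0 higher (limma), against 3.91% lower and 8.42% higher over all genes. Their median difference was -0.23. Centring gave 10 lower with a median of -0.58. The 2 were Cidea, a lipid droplet protein, at -1.14 ± 0.16 (adjusted p = 0.00275) and Ano2, the calcium-activated chloride channel of the cilia, at -0.51 ± 0.14 (adjusted p = 0.0488). Of 17 transduction genes 2 were lower and 2 higher (limma), and centring gave 11 lower and 2 higher. The lower ones were Ano2, shared with the mature neuron list, and Pde1c, the phosphodiesterase of the cilia (-0.69). In the other direction Rgs2, a G protein regulator, was higher by 3.86 ± 0.26 (adjusted p = 4.86e-05), and Slc8b1, a mitochondrial sodium-calcium exchanger, by 1.25. Rgs2 was 8.90, 8.32, 8.21 and 6.78 in titled GFP+ and 4.67, 4.34, 3.82 and 3.94 in titled GFP-. Its titled GFP- values all lay under the negative control median, so the size of its difference depends on a level near background. In bulk fractions such as these, fewer cells of a type and less RNA per cell cannot be told apart.

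Genes higher in the fraction titled GFP+, which had less S100a5, were led by neutrophil granule genes. All 16 measured genes of the neutrophil list passed, against 12.3% of all genes, and did not overlap between groups, against 16.5%. Their median difference was 6.60, against -0.08 over all genes. Ngp, neutrophilic granule protein, was 17.68, 17.28, 16.55 and 15.18 in titled GFP+ and 8.52, 8.58, 5.73 and 6.16 in titled GFP-, a difference of 9.42 ± 0.33 (SE, adjusted p = 2.93e-06). Lcn2, an iron-scavenging granule protein, was 17.22, 16.83, 16.42 and 14.25 in titled GFP+ and 8.40, 7.57, 4.49 and 5.10 in titled GFP-, a difference of 9.79 ± 0.47. For both genes the lowest library titled GFP+ lay more than 5 units above the highest titled GFP-. Granule genes of early maturation such as Mpo, myeloperoxidase (5.98), and Elane, neutrophil elastase (4.71), were higher together with those of late maturation such as Mmp8 and Mmp9, secreted matrix proteases (6.85 each). The titled GFP- means of Mmp8 and Mmp9 (4.69 and 3.97) lay under the negative control median. Prtn3, proteinase 3, had the lowest difference of the list at 1.70.

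Neutrophil genes also set odor pool 4 apart. The median difference of the list was 7.30, 7.52 and 7.52 in pools 1 to 3 and 4.13 in pool 4, and the mean level of the list was 12.82, 12.43, 11.75 and 9.66 in titled GFP+ replicates 1 to 4, against 5.73, 5.75, 4.58 and 4.87 in titled GFP-. Without pool 4 the list median was 7.42, and all 16 genes still passed. Mmp9 had 12.26, 12.07, 11.47 and 7.50 in titled GFP+ and 3.89, 4.42, 3.68 and 3.90 in titled GFP-. Thbs1, thrombospondin 1, a matrix protein also stored in platelets, had the widest spread of pool differences among called genes other than receptors. It was 11.34, 11.53, 11.24 and 7.44 in titled GFP+ and 5.15, 4.69, 4.55 and 5.96 in titled GFP-, with pool differences of 6.19, 6.84, 6.69 and 1.48. The next 7 by that measure were Mmp9, Hp, AB124611, Mmp8, Ear6, Mrgpra2b and Camp, each with its smallest difference in pool 4. Ear6, an eosinophil-associated ribonuclease, had no difference in that pool (-0.01) against 2.10 to 4.40 in the other pools.

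Other blood cell genes followed with smaller differences, and their counts stand against 8.42% higher and 3.91% lower over all genes. Of 14 monocyte and macrophage genes 10 were higher, among them Lyz2, lysozyme, at 5.26. Ly6c2, a monocyte surface protein, was 13.31, 12.69, 12.33 and 10.44 in titled GFP+ and 4.26, 4.41, 4.09 and 3.33 in titled GFP-, where all 4 values lay under the negative control median, so its difference of 8.17 has no measured low side. The complement genes C1qa, C1qb and C1qc and the mannose receptor Mrc1, which mark resident macrophages, were the members that did not pass (0.33 to 0.85). Of 11 lymphocyte genes 8 were higher, among them Ptprc, the pan-leukocyte surface phosphatase CD45 (4.66), Jchain, the joining chain of secreted antibodies (4.29), Cd3e of T cells (2.42) and Cd79a of B cells (2.02). Their median in pools 1 to 4 was 2.35, 1.35, 1.06 and 0.67. Averaged over both fractions, 7 of the 11 lay under the negative control median. The titled GFP- means of Jchain, Cd3e and Cd79a also did, so the sizes of their differences depend on a level near background. Both red blood cell genes measured, Slc4a1 and Alas2, were higher, by 2.46 and 1.10. Class II antigen presentation had 3 of 9 higher, H2-Aa (4.51), H2-Ab1 (3.92) and H2-Eb1 (3.22), which form the surface class II dimers. Of 22 chemokine and receptor genes 11 were higher and 0 lower (limma), led by Ccl9, a myeloid chemokine (4.79), Ccr2, the receptor of inflammatory monocytes (4.49), and Cxcr4 (4.03). Interferon response genes had 6 of 17 higher and 1 lower. The 6 were led by Ifitm2 and Ifitm3, membrane proteins that hinder virus entry (6.59 and 4.50), with the regulators Irf1 (1.58) and Irf7 (1.17) among them. Ifi27, an interferon-induced mitochondrial protein, was lower by a log2 difference of -0.70 (adjusted p = 0.041), and the effector genes Ifit1 and Mx1 had -0.49 and -0.48 (adjusted p = 0.0761 and 0.0638).

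**Figure D2:**
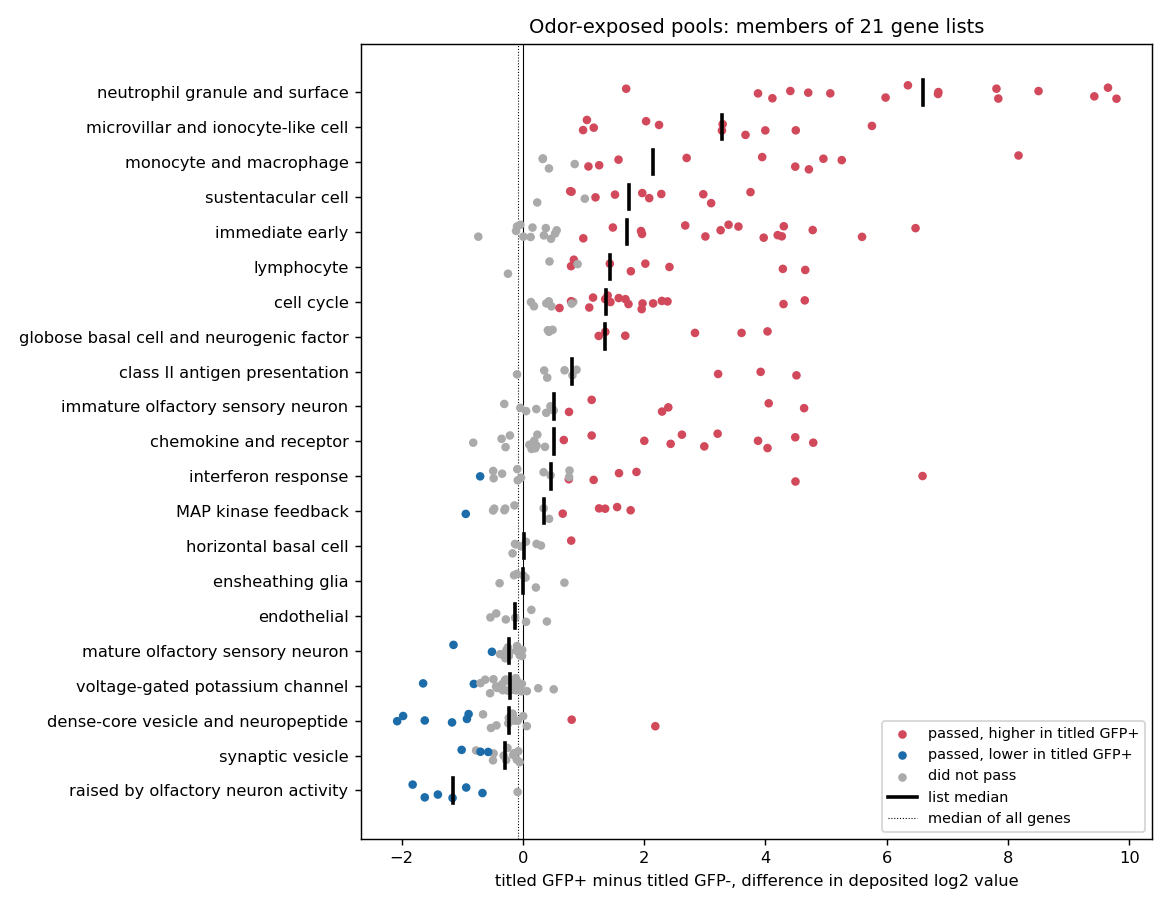
Differences in deposited log2 value, titled GFP+ minus titled GFP- (x axis), for the members of 21 gene lists (rows) in the odor pools; each point is 1 gene, colored by whether it passed the limma test, with a black bar at the list median and a dotted line at the median of all genes (-0.08). Neutrophil and microvillar lists are among those wholly to the right of 0, and the activity-raised list is among those wholly to the left.

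Microvillar and sustentacular genes, of epithelial cells other than neurons, were higher in the titled GFP+, S100a5-lower fraction as well. Counts called are to be read against 8.42% higher and 3.91% lower over all genes. All 11 microvillar and ionocyte-like genes passed, with a median of 3.28. Hepacam2, an adhesion protein of ionocyte-like cells, was 12.61, 12.63, 11.57 and 11.17 in titled GFP+ and 6.19, 6.32, 6.64 and 5.80 in titled GFP-. Foxi1, the ionocyte transcription factor, was 12.17, 12.47, 9.99 and 10.18 in titled GFP+ and 6.88, 7.26, 6.26 and 6.41 in titled GFP-. Trpm5, the cation channel of tuft-like microvillar cells, had 8.79, 9.06, 8.36 and 8.17 in titled GFP+ and 5.96, 5.54, 4.96 and 4.79 in titled GFP-. Foxi1 split the pools by level, with pools 1 and 2 above pools 3 and 4 in titled GFP+, whereas Trpm5 kept to differences of 2.83 to 3.52. Of 12 sustentacular genes 10 were higher, with a median of 1.74, led by the keratin gene Krt18 (3.75 ± 0.16), Sult1c1, a sulfotransferase (3.10), Krt8, the keratin partner of Krt18 (2.98), and Cyp2a5, an odorant-metabolizing enzyme (2.08). The mean level of that list was 8.95 to 10.14 in titled GFP+ and 6.96 to 8.21 in titled GFP-. Of 6 genes of the Bowman gland list 3 passed. Sox9, a duct and gland transcription factor, was higher by 3.83 and Aqp5, a water channel, by 1.07; Ltf, lactoferrin, at 6.35, is shared with the neutrophil list. The secretory genes Bpifb9b (0.51), Muc5b (0.19) and Dmbt1 (-0.62) did not pass. By their medians these epithelial lists were higher in the same fraction as the blood cell markers, whose part in them was not tested.

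Progenitor and newly formed neuron genes were higher too, and their counts stand against 8.42% higher and 3.91% lower over all genes. Of 9 globose basal cell genes 6 passed, all higher, with a median of 1.36. Those named by their p were the neurogenic factors Neurog1 (1.25) and Sox11 (2.84), and the receptors Kit (3.61) and Cxcr4 (4.03). Cxcr4 is shared with the chemokine and receptor list. Pool differences were lowest in pool 4 for Kit (2.69) and Cxcr4 (3.07), and in pool 1 for Neurog1 (1.01). Neurog1 lay under the negative control median in both fractions, with means of 5.18 in titled GFP+ and 3.93 in titled GFP-. The titled GFP- mean of Kit (4.28) also did. Averaged over both fractions, 4 of the 9 globose basal cell genes and 9 of the 24 cell cycle genes lay under that median. Of 24 cell cycle genes 17 were higher and 0 lower (limma), with Mki67, the proliferation antigen, at 10.50, 10.24, 9.77 and 8.25 in titled GFP+ and 6.29, 4.60, 4.39 and 4.90 in titled GFP-. The cell cycle median was 1.85, 1.36, 1.35 and 0.73 in pools 1 to 4, lowest in the pool with the lowest neutrophil values. Of 13 immature neuron genes 6 were higher. Gng8, the G protein gamma subunit of immature neurons, was 10.33, 10.16, 10.99 and 10.79 in titled GFP+ and 5.46, 6.44, 6.09 and 5.74 in titled GFP-, a difference of 4.64 ± 0.23. Unlike the blood cell genes, Gng8 had its highest pool difference in pool 4 (5.05). Gap43, a growth cone protein, differed by 2.40, Dpysl3, a growth cone regulator of the cytoskeleton, by 4.05, and Stmn1, which destabilizes microtubules, by 2.30. Other markers of young neurons did not pass: Tubb3 had 0.05, Stmn4 -0.04 and Dcx, doublecortin, -0.31 (adjusted p = 0.857, 0.898 and 0.291).

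Horizontal basal cell, ensheathing glia, endothelial and fibroblast genes had medians of 0.01, 0.01, -0.13 and -0.01, near the -0.08 of all genes, and the first 2 turn negative after centring. Ciliated cell genes had a median of -0.36, with 6 of 7 differences below 0. None of the 7 passed in limma, 4 had an unadjusted p below 0.05, and centring gave 5 lower. Ccdc113, a cilium protein, lay nearest to the threshold of these (-0.87, adjusted p = 0.0572). Of 34 measured genes in these 5 lists Itga6, an integrin (0.80), and Dcn, decorin (1.31), passed in limma, both higher. That share is below the 12.3% called over all genes. Foxj1 was not analysed here. Sox10 of glia (0.69, adjusted p = 0.112) and Kdr of endothelium (-0.54, adjusted p = 0.0821) lay nearest to the threshold in their lists.

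Single genes with the smallest p-values came from several of these groups. Vim, vimentin, an intermediate filament protein of leukocytes and newly formed neurons, was 12.75, 12.26, 12.20 and 11.48 in titled GFP+ and 6.90, 6.91, 6.51 and 5.93 in titled GFP-. Its pool differences lay between 5.35 and 5.85 (mean 5.61 ± 0.15, SE, adjusted p = 1.59e-06). Adgrg6, an adhesion G protein-coupled receptor, was higher as well, at a mean of 11.48 in titled GFP+ and 5.31 in titled GFP-. Adgrg2, another of that family, averaged 9.55 in titled GFP+ and 4.73 in titled GFP-, Pik3cg, a leukocyte lipid kinase, 9.18 and 4.10, and Plk2, a polo-like kinase, 9.45 and 4.49. The titled GFP- means of these 4 genes lay under the negative control median, so the sizes of their differences are not given. Calb2, calretinin, a calcium-binding protein of neurons that was named after its values were seen, had 16.18, 16.22, 16.33 and 16.16 in titled GFP+ and 11.91, 11.41, 11.34 and 11.73 in titled GFP-. These were the tightest values within the titled GFP+ fraction among the genes given here library by library, with an SD of 0.07, and the difference was 4.62 ± 0.17 (adjusted p = 3.5e-06). Calb2 was thus far higher in the fraction with less S100a5, at a level above 16, and pool 4 did not stand apart.

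Immediate early genes, which respond to a stimulus before new protein is made, were higher in titled GFP+ where they passed, the opposite side from S100a5. Of 28 measured members 16 were higher and 0 lower (limma), against 8.42% and 3.91% of all genes. Their median difference was 1.72. Egr2, a zinc finger factor, was 13.36, 13.84, 13.31 and 13.19 in titled GFP+ and 7.28, 7.73, 5.46 and 7.33 in titled GFP-, a difference of 6.48 ± 0.32 (SE, adjusted p = 1.18e-05). Egr1, of the same family, was 14.16, 14.25, 13.77 and 13.41 in titled GFP+ and 7.82, 9.43, 8.18 and 7.79 in titled GFP-. The pool differences of Egr1 were 6.34, 4.82, 5.59 and 5.62, lowest in pool 2. Those of Egr2 were 6.08, 6.11, 7.85 and 5.85, lowest in pool 4. Btg2, an antiproliferative regulator, differed by 4.78 and Ptgs2, the inducible cyclooxygenase, by 3.97. Both had their lowest pool difference in pool 4 (4.26 and 3.55). The titled GFP- mean of Ptgs2 (4.20) lay under the negative control median. Fos, the partner of Jun in AP-1, averaged 15.06 ± 0.63 in titled GFP+ and 10.86 ± 0.54 in titled GFP- (SD, n = 4 each; 4.20 ± 0.28, adjusted p = 4.81e-05).

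Part of the list did not pass. Jund (0.01), Homer1 (-0.10), Arc (0.13), Egr3 (0.38) and Egr4 (-0.11) were such members, as was Npas4, a factor that in neurons responds to calcium entry, at 3.17 ± 0.27 in titled GFP+ and 3.21 ± 0.04 in titled GFP-, under the negative control median. Maff had -0.73 (adjusted p = 0.0606). Of 13 genes of MAP kinase feedback, phosphatases and Sprouty-type inhibitors that the same pathway induces, 5 were higher and 1 lower. This and the counts that follow stand against 8.42% higher and 3.91% lower over all genes. The median of the 13 was 0.34 and became -0.01 after centring. Dusp6, a phosphatase of ERK, was higher by 1.78, Dusp4 by 1.55, Dusp10 by 1.36 and Spry1 by 1.26, and Spred2 was lower by a log2 difference of -0.94. The stress genes Gadd45a, Gadd45b and Gadd45g were higher by 0.80, 1.93 and 1.70, the 3 called of 9 apoptosis and p53 genes. Hspa1b (0.93) and Hspb1 (0.71) were the 2 called of 8 heat shock genes, whose median of 0.21 turned to -0.14 after centring. Blood cell markers were higher in the same fraction. The mean level of the 16 neutrophil genes was 9.66 to 12.82 in titled GFP+ and 4.58 to 5.75 in titled GFP-. Ngp, Lcn2 and Retnlg, their defining markers, were all present in titled GFP+. By pool the neutrophil median was 7.30, 7.52, 7.52 and 4.13. The immediate early median was 1.55, 2.02, 1.37 and 1.16, and that of MAP kinase feedback 0.30, 0.38, 0.21 and 0.37. The part of blood cells in the immediate early difference was not tested.

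Promoter sequence of 4 genes is shown, chosen to make the listed response elements visible. The 250 bases before the annotated start, from RefSeq on GRCm38.p6, were searched on both strands for the cyclic AMP response element TGACGTCA, its TGACG part, which the full element also contains, and the CArG box bound by serum response factor. The TGACG part was found for 10 of 15 immediate early genes that passed and had an entry (66.7%), for 5 of 8 that did not pass (62.5%), for 1 of 6 activity-raised genes that were lower (16.7%, Pcdh10), and for 19.8% of 27025 genes. The full element was found in Btg2 and Maff, against 1.77% of all genes, and the CArG box in Egr2 and Zfp36, against 1.62%. Egr1 had no entry. S100a5 and Egr2 are shown as the reporter gene and the immediate early gene with the largest difference, Fos and Npas4 as members that did and did not pass, both chosen after their values were seen. Each sequence is written along the gene's own strand, and capitals mark the TGACG part or its reverse complement CGTCA.

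S100a5 (chr3:90608272-90608521, + strand): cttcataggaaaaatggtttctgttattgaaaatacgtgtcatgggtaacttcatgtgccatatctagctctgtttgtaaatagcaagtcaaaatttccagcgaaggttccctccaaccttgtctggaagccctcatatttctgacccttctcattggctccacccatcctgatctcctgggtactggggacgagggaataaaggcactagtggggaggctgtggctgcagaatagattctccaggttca
Egr2 (chr10:67537619-67537868, + strand): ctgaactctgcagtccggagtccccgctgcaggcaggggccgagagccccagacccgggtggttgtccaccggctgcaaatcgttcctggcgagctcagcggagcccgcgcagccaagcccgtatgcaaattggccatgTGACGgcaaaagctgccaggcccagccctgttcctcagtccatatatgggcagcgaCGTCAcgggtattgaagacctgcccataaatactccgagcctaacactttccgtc
Fos (chr12:85473640-85473889, + strand): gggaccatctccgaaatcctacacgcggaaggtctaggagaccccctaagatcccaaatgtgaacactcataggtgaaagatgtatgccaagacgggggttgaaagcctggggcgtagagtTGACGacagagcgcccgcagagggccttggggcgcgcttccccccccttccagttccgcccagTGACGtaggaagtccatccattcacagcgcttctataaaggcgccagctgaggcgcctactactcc
Npas4 (chr19:4989972-4990221, - strand): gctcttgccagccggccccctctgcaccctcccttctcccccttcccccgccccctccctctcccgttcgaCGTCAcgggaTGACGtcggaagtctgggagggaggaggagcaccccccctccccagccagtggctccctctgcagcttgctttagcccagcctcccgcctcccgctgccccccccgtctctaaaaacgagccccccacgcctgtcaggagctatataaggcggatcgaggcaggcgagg

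The S100a5 window held 0 of these TGACG parts, and the windows of Egr2, Fos and Npas4 held 2 each. Npas4 thus carried as many as Fos while its transcript stayed at the bottom of the scale in both fractions. Egr2 has 5 annotated start sites, of which the window with the most TGACG parts is shown, and a gene was counted above if any of its windows held the motif.

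**Figure D3:**
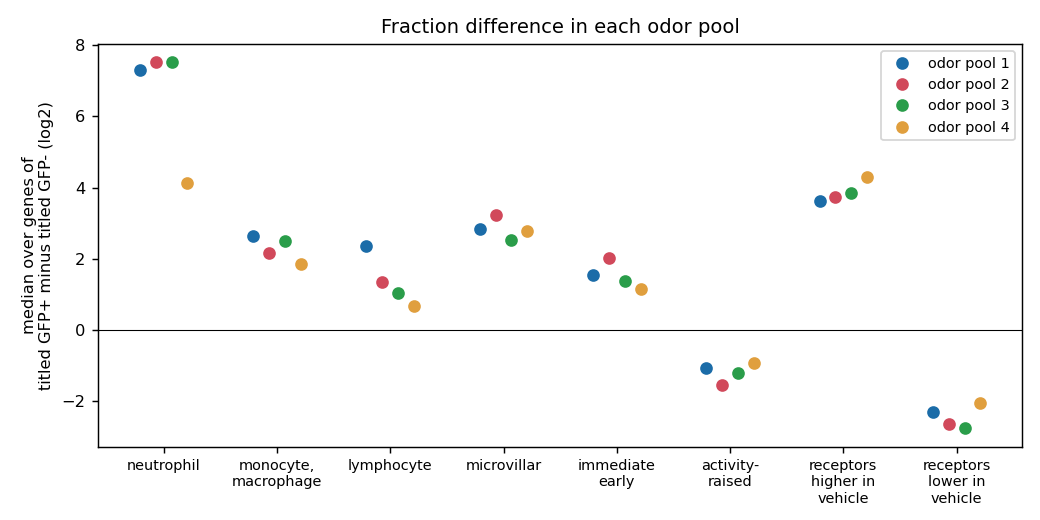
Median over genes of the difference titled GFP+ minus titled GFP- in deposited log2 value (y axis), in each of the 4 odor pools (points), for 6 gene lists and for receptors split by the vehicle pools 1, 2 and 4. Pool 4 is lowest for neutrophil genes (4.13, against 7.30 to 7.52) and highest in both receptor sets (4.30, against 3.63 to 3.86, and -2.06, against -2.76 to -2.30).

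Odorant and trace amine-associated receptors sorted strongly in both directions. Of 1096 receptor genes 686 passed (62.6%, against 12.3% of all genes), 307 higher and 379 lower in titled GFP+. The median difference was -0.22 over all 1081 odorant receptors and -0.39 over the 15 trace amine-associated receptors. Receptors called higher had a median level of 10.3 in titled GFP+ and 6.52 in titled GFP-, and those called lower 8.29 in titled GFP+ and 10.4 in titled GFP-. The receptors that did not pass had 8.14 in titled GFP+ and 8.09 in titled GFP-. The size was unequal, with a median of 2.67 for those called higher and -1.90 for those called lower, and 97 receptors were higher by over 4 where 22 were lower by over 4. The SD of the 4 pool differences had a median of 0.598 among called receptors and 0.466 among other called genes. Since a receptor marks 1 small population of neurons, its level in a fraction carries both the number of such neurons and the transcript in each.

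At the upper end Olfr1213 was 14.24, 13.84, 13.78 and 14.29 in titled GFP+ and 6.06, 6.31, 4.09 and 6.47 in titled GFP-, a difference of 8.31 ± 0.33 (SE, adjusted p = 5.07e-06). Olfr390 was 12.81, 13.16, 13.10 and 13.32 in titled GFP+ and 4.60, 5.01, 5.47 and 5.50 in titled GFP-, with pool differences of 7.63 to 8.21. Olfr677 was 12.04, 12.64, 12.17 and 11.75 in titled GFP+ and 4.45, 5.04, 3.97 and 3.93 in titled GFP-. All 4 libraries titled GFP- were near or under the negative control median for Olfr390 and Olfr677, so their level was clearly above it only in titled GFP+. The others of the 10 largest were Olfr99, Olfr393, Olfr460, Olfr1507, Olfr794, Olfr1406 and Olfr1297, from 8.18 to 7.19. Olfr1507 had the least even pools of these, at 8.70, 7.60, 9.15 and 5.04.

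At the lower end Olfr536 was 8.88, 8.80, 8.36 and 9.39 in titled GFP+ and 15.20, 14.51, 14.38 and 14.98 in titled GFP-, a difference of -5.91 ± 0.17 (SE, adjusted p = 1.8e-06). Olfr110 was 6.75, 6.56, 6.53 and 7.66 in titled GFP+ and 12.44, 12.78, 11.61 and 13.60 in titled GFP-. Olfr309 was 10.30, 9.78, 9.97 and 10.50 in titled GFP+ and 15.46, 15.62, 15.32 and 16.03 in titled GFP-. None of these 3 fell under the negative control median in titled GFP+. The others of the 10 largest negative differences were Olfr533, Olfr494, Olfr613, Olfr481, Olfr1093, Olfr211 and Olfr372, between -5.29 and -4.42.

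**Figure D4:**
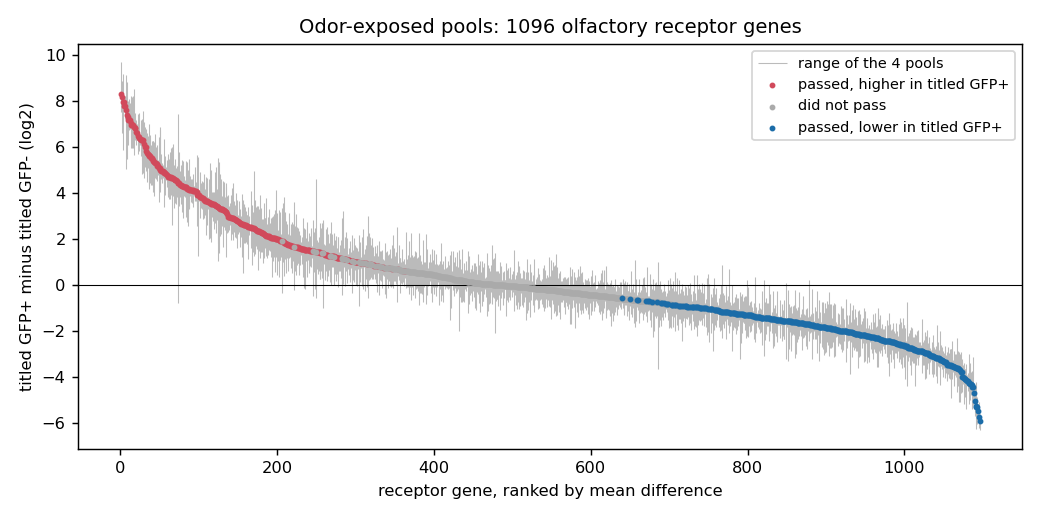
Difference titled GFP+ minus titled GFP- in deposited log2 value (y axis) of 1096 receptor genes ranked by it (x axis); points are means of 4 pools colored by the limma call, and grey lines span the 4 pools. The positive end reaches 8.31 and the negative end -5.91, with 307 receptors called higher and 379 lower.

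Receptor classes and neighbours were mixed in direction. Of 120 class I receptors, the fish-like class, 25 were higher and 36 lower (50.8% called), and of 941 class II receptors 266 were higher and 331 lower (63.4% called); classes were taken from the MOR family numbers in the gene table, up to 42 for class I, and the difference in share was not tested. Among 975 pairs of receptors next to each other on a chromosome both members were called in 392. In 254 of these pairs the neighbours went the same way and in 138 opposite ways. The widest gap, picked after the values were seen, was between Olfr99 and Olfr101. Olfr99 was 14.12, 14.20, 14.32 and 14.20 in titled GFP+ and 5.26, 7.57, 5.60 and 5.69 in titled GFP-, while its neighbour Olfr101 was 7.66, 7.61, 6.82 and 9.27 in titled GFP+ and 11.72, 12.35, 11.98 and 12.28 in titled GFP-. Of 15 trace amine-associated receptors, which detect volatile amines, 6 were higher and 7 lower; Taar2 had the largest positive difference (5.29) and Taar9 the largest negative one (-2.44). Of 323 vomeronasal receptors 14 were lower and 1 higher, fewer than the 12.3% of all genes, and 314 of the 323 lay under the negative control median. Centring gave 177 lower, and with genes under that median left out 0 of the 9 remaining passed in limma (2 at an unadjusted p below 0.05).

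The vehicle pools gave an independent split of the receptors. In vehicle pools 1, 2 and 4, 200 receptors were higher by over 1 in titled GFP+ in each pool, and 231 were lower by over 1 in each. In the odor pools all 200 of the first set were above 0, with 197 called higher, and all 231 of the second set were below 0, with 224 called lower. The medians of the first set were 3.80 in odor and 3.74 in vehicle, and of the second -2.42 in odor and -2.32 in vehicle. By odor pool the first set had medians of 3.63, 3.73, 3.86 and 4.30 and the second -2.30, -2.63, -2.76 and -2.06. Of the 665 other receptors 110 were called higher and 155 lower in odor. Vehicle pool 3 had medians of -3.88 and 2.48 for the 2 sets, opposite to all odor pools. No library is shared between these odor and vehicle values.

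Whether a fraction difference depended on the odor was tested as the difference of fraction differences, odor minus vehicle, in a fit that blocked on the pool. With all 16 arrays limma called 0 of 19505 genes (0%; 512 at an unadjusted p below 0.05), and without vehicle pool 3 it called 1 (0.00513%; 692 unadjusted), Olfr221. Olfr221 was 8.05, 9.03, 7.79 and 9.38 in the odor titled GFP+ libraries, against 12.78, 13.18, 12.77 and 12.78 in the odor titled GFP- libraries. Its odor differences were -4.73, -4.15, -4.98 and -3.40, and its vehicle differences in pools 1, 2 and 4 were 1.26, 0.98 and -0.32, with -1.04 in vehicle pool 3. The difference between treatments was -4.96 ± 0.46 (SE, adjusted p = 0.0203), or an adjusted p of 0.269 over all 16 arrays. In every odor pool Olfr221 was thus lower in the fraction titled GFP+, the one with less S100a5, while the vehicle pools were mixed in sign.

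The next 4 receptors by p did not pass. Olfr170 had 9.96, 10.09, 10.51 and 9.83 in odor titled GFP+ and 11.47, 11.58, 11.96 and 11.63 in odor titled GFP-. Its odor differences of -1.80 to -1.45 stood against -0.01, 0.54 and 0.84 in vehicle pools 1, 2 and 4 (difference -2.02, adjusted p = 0.116). Olfr937 had 6.91, 7.42, 7.21 and 6.67 in odor titled GFP+ and 9.61, 9.27, 9.58 and 9.54 in odor titled GFP-, with vehicle differences of -0.22, -0.32 and -0.55 (difference -2.08, adjusted p = 0.13). In both, as in Olfr221, each odor pool lay below each of these vehicle pools. Olfr286 differed by -1.27 between treatments and Olfr615 by 1.89 (adjusted p = 0.344 each), and Olfr615 had a smaller fraction difference with odor, -0.56, against -3.00, -1.90 and -2.45 in vehicle.

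**Figure D5:**
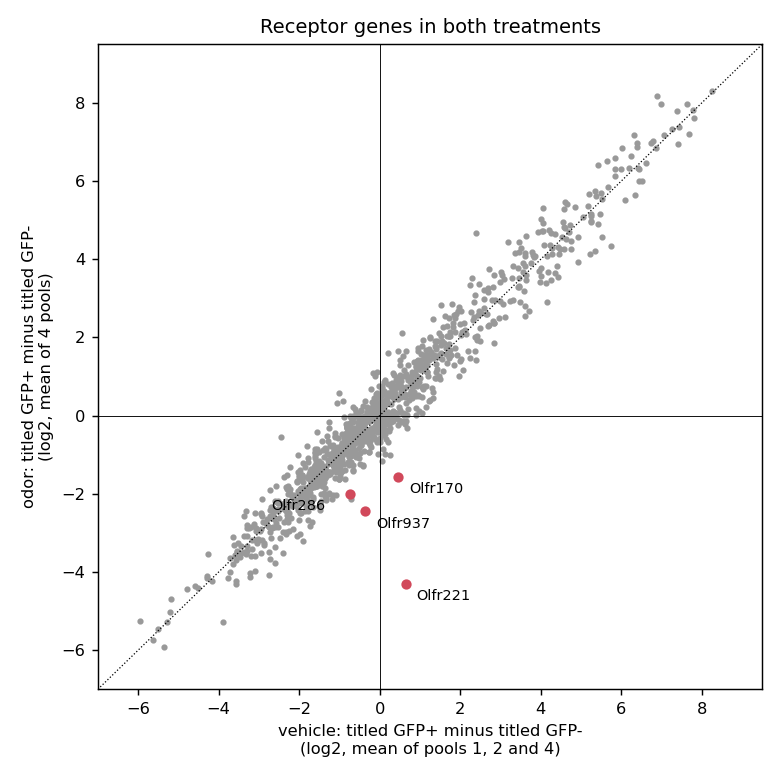
Difference titled GFP+ minus titled GFP- of each receptor gene in odor (y axis, mean of 4 pools) against vehicle (x axis, mean of pools 1, 2 and 4), both in deposited log2 values; the dotted line marks equal differences. Most receptors lie along the line, and Olfr221 lies below it at -4.31 in odor.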

How the data were processed

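Gene expression was measured in 16 libraries of sorted olfactory mucosa cells, of which the 8 odor libraries form the main comparison. The authors deposited 1 table of log2 values, and per the submitters' processing notes Affymetrix Expression Console produced it. Its version, summarization method and genome build were not given in the sources used here. A top value of 19.4 shows that the scale is not a plain log2 of 16-bit intensities, a step whose form is not given. Precision is limited by how many arrays there are, since an array has no read depth. Among 28846 probe sets, 6640 were controls, 2634 had no listed gene and 19572 had 1 gene symbol. The probe set with the highest mean over all arrays stood for each of the 55 genes with several, which left 19505 genes. Symbols come from the platform annotation, and receptor families, neighbours and promoters from RefSeq tables of GRCm38.p6.

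Groups followed the titles. Differences, titled GFP+ minus titled GFP-, were tested with two-sided moderated tests (lmFit and eBayes of limma 3.58.1, run in R 4.3.3) on the 8 odor arrays with the pool of mice as a block, with Benjamini-Hochberg adjustment across all genes and a threshold of 0.05. Pairing comes from the labels, which give 24 mice in 8 pools of 3. Deviations from the group means correlated at 0.127 to 0.253 between the 2 libraries of a pool and at -0.257 to 0.152 between libraries of different pools. Nothing in the labels says more on how the pools of a treatment were kept apart, so p-values measure the spread between these pools. The script was tested on simulated data.

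The members and the 33 gene lists were chosen with earlier results of these data known, so they lend no independent support. The rule named S100a5; the 12 largest differences in each direction and the 8 smallest p-values among called genes other than receptors and unnamed loci with the same sign in all pools; the 10 largest receptors in each direction; the 8 widest pool spreads; and, of each list, the 4 smallest p-values, members called against the list, and all members of lists of up to 6. It also named the 5 smallest p-values in the difference of fraction differences. Defining cell type markers come from the same fixed list. Calb2, Olfr99 as a neighbour, Olfr101, Taar2, Taar9, Fos and Npas4, and the other list members that are named, were chosen after their values were seen. Of the called genes 49 were unnamed loci and are not named. A rule for receptor pairs by protein identity was not applied, since no protein sequences were used here.

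Alternatives were no block, all 16 or 14 arrays with and without pools as a block, centred arrays, quantile normalization, mean of probe sets, a filter at the negative control median, a trended robust prior, and leaving out each pool.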

Additional observations from a re-analysis of the deposited data

Results flagged for a closer look

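Among the genes named in the text, 352 groups of 4 odor libraries were examined for 1 library far from the other 3, and 18 had one by Dixon's criterion; chance flags about 1 in 20 groups. Odor replicate 4 titled GFP+ was far below the rest for Mmp9 (7.50), Mmp8 (8.41), Thbs1 (7.44) and Kit (7.03), and far above them for Spag6l (9.72), a cilium protein, and Rfx8 (2.77, under the negative control median). Odor replicate 4 titled GFP- was far below for Dusp4 (4.72) and Cxcr2 (4.41) and far above for Rfx8 (3.71) and H2-Oa (4.40). Odor replicate 2 titled GFP- was far above for Tekt1 (11.40), Dusp6 (6.41), Fxyd6 (8.10) and Olfr221 (13.18), where the other 3 libraries lay at 12.77 to 12.78. Odor replicate 2 titled GFP+ was far above for Dnajb1 (10.73), and odor replicate 3 titled GFP+ for Epha5 (11.17). Odor replicate 3 titled GFP- was far below for Icam1 (3.83), and odor replicate 1 titled GFP- for AB124611 (3.89).

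Olfr221 also stood out because its fraction difference differed between treatments, by -4.96 (odor minus vehicle, limma adjusted p = 0.0203 on the 14 arrays without vehicle pool 3).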

How the results depend on the processing

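The 2406 called genes became 1359 with all 16 arrays and no replicate block, and 2 with all 16 arrays and the replicate block (Olfr221 and Olfr937), where vehicle pool 3 enters the spread. Centring arrays gave 9626 calls (1399 higher, 8227 lower). Other settings gave 1967 to 2871 calls, among them 2315 without the replicate block, and leaving out 1 pool gave 1664 to 2154. S100a5 kept its direction throughout. It missed the threshold with all 16 arrays, at -1.16 without the block (limma adjusted p = 0.0625) and with it (adjusted p = 0.206). On the 14 arrays without vehicle pool 3 it passed without the block (adjusted p = 0.000588) and with it (adjusted p = 0.00423). The S100a5 difference ran from -1.33 to -1.03 with 1 pool left out. For the difference of fraction differences 0 genes became 1, Olfr221, with 14 arrays and the replicate block and with 16 arrays and no block; leaving out 1 pool gave 0 to 1. Of 176 named genes, 135 that had passed missed the threshold with 16 arrays and the replicate block, and 27 with 16 arrays and no block.

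The signs that turned belonged to genes that did not pass. After centring these were Icam1 (-0.052), Egfr (-0.12), Muc5b (-0.16), Frzb (-0.14), Lum (-0.23) and Kirrel3 (-0.15), and after quantile normalization Lum (-0.055) and Col3a1 (0.062). With 1 pool left out, values ran from -0.26 to 0.036 for Gfap, -0.20 to 0.49 for Frzb, -0.39 to 0.059 for Col1a2, -0.18 to 0.18 for Col3a1 and -0.15 to 0.090 for Efna5. Levels near the negative control median limit what the low side of a difference can show. The causes were not tested.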
